A study of Mus musculus with 9 samples.

Results

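Nascent transcription and H3K27me3 were examined over the 4 Hox clusters of mouse duodenal organoids (mini-guts). Members were the genes whose symbol starts with Hox, a cluster letter from a to d and a digit, with antisense transcripts named in that way. This rule found 42 members, 39 protein-coding genes and 3 antisense transcripts (Hoxb5os, Hoxd3os1 and Hoxa11os), among 24505 genes listed in the GRO-seq table. GRO-seq (global run-on sequencing) reads RNA while polymerase makes it, and each of 3 cultures had 2 such libraries. RANKL was labelled as M cells, the antigen-sampling cells of the gut lining, ENRI as enterocytes and WENRC as intestinal stem cells. H3K27me3, a histone mark laid down by the Polycomb complex PRC2, was mapped by ChIP-seq in a RANKL pool of 2 libraries and in 1 WENRC library. The ENRI and WENRC GRO-seq libraries came from mouse 1 and mouse 2, with 1 library of each culture per mouse, whereas the labels give no animal for RANKL. The labels name the duodenum for all libraries and give no strain, genotype, age or medium, and each culture was sequenced in bulk.

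Hox genes encode homeodomain transcription factors that specify position along the body axis. They lie in clusters in which low-numbered (anterior) genes are used nearer the head and high-numbered (posterior) genes nearer the tail. In the gut they take part in regional patterning of the tube during development, and genes of a cluster are held silent by Polycomb and H3K27me3 where they are not used. Kmt2a and related H3K4 methyltransferases, Cdx factors and retinoic acid receptors act on the active side, and Pbx and Meis proteins bind DNA together with Hox proteins.

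Start regions of 4 members named in the results below are shown first, picked from the members for which a window was found. Hoxb5os, Hoxb3, Hoxb5, Hoxb6 and Hoxb9 had no window. Hoxa3, Hoxb4 and Hoxb8 carried RANKL-higher H3K27me3 over or next to the start, and Hoxd3 differed most between the 2 mice. Each window holds 250 bases before and 50 after the start, from RefSeq on GRCm38.p6, 5′ to 3′ on the gene's strand, with each CG dinucleotide in capitals. All other coordinates are mm9, the build of the deposited files.
Hoxa3 (chr6:52213018-52213317, minus strand): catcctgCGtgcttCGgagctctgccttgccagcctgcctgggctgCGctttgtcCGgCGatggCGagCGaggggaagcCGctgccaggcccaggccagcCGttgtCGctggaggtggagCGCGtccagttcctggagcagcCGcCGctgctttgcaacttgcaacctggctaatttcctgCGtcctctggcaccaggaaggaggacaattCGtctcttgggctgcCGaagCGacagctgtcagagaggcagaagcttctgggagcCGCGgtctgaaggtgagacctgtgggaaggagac
Hoxb4 (chr11:96318017-96318316, plus strand): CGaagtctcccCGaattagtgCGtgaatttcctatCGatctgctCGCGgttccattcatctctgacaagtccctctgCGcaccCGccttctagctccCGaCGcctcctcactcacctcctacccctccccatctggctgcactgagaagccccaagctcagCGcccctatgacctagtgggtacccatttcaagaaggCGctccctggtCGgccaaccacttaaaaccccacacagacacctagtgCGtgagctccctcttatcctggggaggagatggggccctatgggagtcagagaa
Hoxb8 (chr11:96281655-96281954, plus strand): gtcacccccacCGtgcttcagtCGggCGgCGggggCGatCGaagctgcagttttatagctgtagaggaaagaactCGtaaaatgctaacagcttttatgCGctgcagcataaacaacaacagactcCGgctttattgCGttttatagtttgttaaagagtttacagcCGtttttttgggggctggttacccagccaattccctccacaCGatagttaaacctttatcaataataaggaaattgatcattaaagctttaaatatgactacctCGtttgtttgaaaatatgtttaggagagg
Hoxd3 (chr2:74711743-74712042, plus strand): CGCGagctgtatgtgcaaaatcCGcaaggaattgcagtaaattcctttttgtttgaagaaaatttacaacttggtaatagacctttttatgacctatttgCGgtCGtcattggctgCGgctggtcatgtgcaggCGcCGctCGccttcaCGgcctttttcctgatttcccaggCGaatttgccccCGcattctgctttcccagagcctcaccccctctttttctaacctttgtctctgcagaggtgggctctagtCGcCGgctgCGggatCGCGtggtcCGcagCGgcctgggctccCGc
The windows held 20 CG dinucleotides at Hoxa3, 14 at Hoxb4, 13 at Hoxb8 and 20 at Hoxd3. Of 32851 windows of the same length over all genes, 26.5% held at least 20, 36.3% at least 14 and 37.9% at least 13. Windows were found for 24 of 42 members (26 windows), with a median of 14.5 CG dinucleotides against 7 over all windows. The letters TTTATGG, a Cdx motif, stood on either strand in 1 of these 26 windows (3.85%), that of Hoxd4, with 2 matches, against 2.75% of all windows. The letters TGATTNAT, a motif of Pbx with Hox proteins, stood in 2 of 26 (7.69%), at Hoxa2 and Hoxd11, against 3.22% of all windows. The 2 motifs were searched separately, and a match is a description of the letters.

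All 6 tested M cell markers were called higher in RANKL than in ENRI and than in WENRC, and all 5 stem cell markers higher and all 5 enterocyte markers lower in WENRC than in ENRI (limma, adjusted p under 0.05). RANKL also differed in the markers of the other labels. Of the 5 stem cell markers, 3 were higher in RANKL than in ENRI, with Olfm4 at 10.9 and 11.0 in RANKL, 5.14 and 7.41 in ENRI, and 8.83 and 9.12 in WENRC, and 1, Lgr5, was lower in RANKL than in WENRC. Of the 5 enterocyte markers, 1 was lower in RANKL than in ENRI and 4 were higher than in WENRC. The part of these markers in the Hox changes described next was not tested. Pdx1, a duodenal factor, lay between 7.71 and 8.19 in the 6 libraries. GRO-seq values are log2 values normalized by the authors, in which genes with few reads are drawn together, so that differences of low genes are understated. GRO-seq depth is unknown. The RANKL libraries are named in the file header as combined reads of a repeat sequencing, so the sequencing run and this culture cannot be told apart, and the table's ENRI and WENRC columns carry 1 date per mouse. The replicates of RANKL were closest to each other, with an SD across genes of their difference of 0.22, against 0.42 in WENRC and 0.70 in ENRI.

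Transcription over the clusters was uneven. Of the 42 members, 15 passed the filter (a value of at least log2 of 10 in 2 libraries) and were tested, and these were 8 of 11 in Hoxb, 4 of 12 in Hoxa, 3 of 10 in Hoxd and 0 of 9 in Hoxc. Tested members were Hoxa2, Hoxa3, Hoxa9 and Hoxa10, then Hoxb3 to Hoxb9 with Hoxb5os, and Hoxd3, Hoxd3os1 and Hoxd4. Of these, 12 reached the filter in all 6 libraries, and 2, Hoxa2 and Hoxa9, passed with both RANKL libraries under it, so that a lower RANKL value was built into their selection. Of the 27 members not tested, Hoxc11 and Hoxc12 were listed at 0 in all libraries, and the other 25 lay between -1.98 and 3.40. Within Hoxc no value exceeded 0.38. The highest member values were 8.48 in Hoxd (Hoxd3, ENRI 1), 8.32 in Hoxb (Hoxb5os, WENRC 1) and 7.88 in Hoxa (Hoxa3, WENRC 1), against a median of all tested genes of 7.72 in RANKL, 7.73 in ENRI and 7.75 in WENRC.

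**Figure D1:**
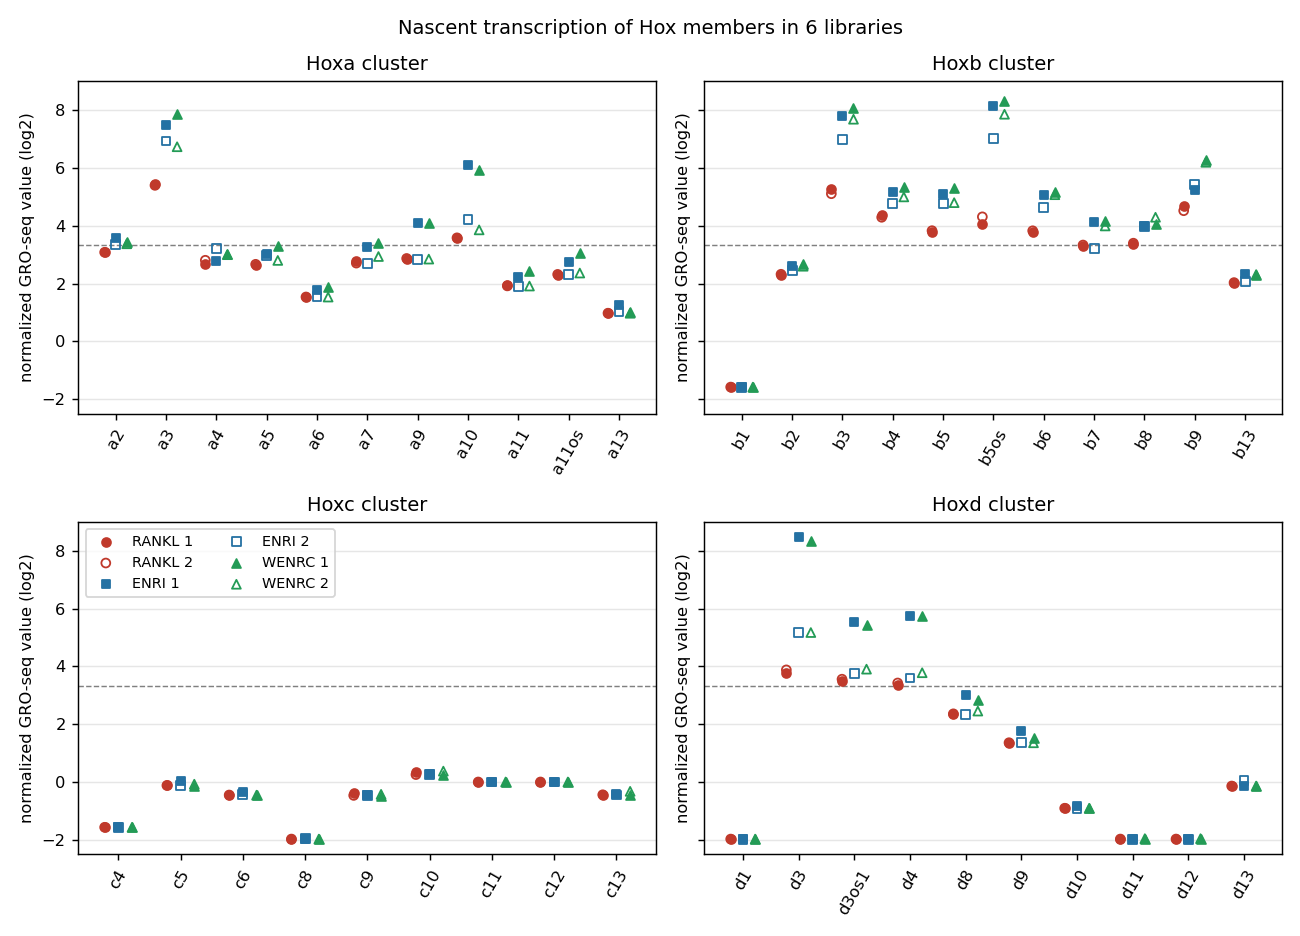
Normalized GRO-seq value (log2) of Hox members in the 6 libraries, by cluster and in paralog order, with filled symbols for library 1, open symbols for library 2 and a dashed line at log2 of 10. Hoxc values stay at or below 0.38, both RANKL symbols of Hoxb5os (4.07 and 4.31) lie below the other 4, and Hoxd3 splits by mouse (8.48 and 8.32 against 5.18 and 5.17).

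Divided by gene length, the order of levels within a cluster changed. As log2 of the level per kb, averaged over the 6 libraries, Hoxb6 (3.33), Hoxb5 (3.21), Hoxb4 (3.06) and Hoxb9 (2.99) led Hoxb. Among tested members, Hoxa2 (2.05) and Hoxa10 (1.27) led Hoxa, and Hoxd3os1 (1.67) and Hoxd4 (1.43) led Hoxd. Hoxa4 (1.90) and other Hoxa members that were not tested stood above Hoxa10. By position, the median level per kb in WENRC fell in Hoxa from 1.92 in paralog groups 1 to 4 to 1.54 in groups 5 to 8 and 0.83 in groups 9 to 13. In Hoxd the same WENRC medians were 1.56, 0.91 and -2.60, whereas in Hoxb the central genes stood highest (2.31, 3.04 and 2.48). ENRI had the same order as WENRC in Hoxa (1.87, 1.42 and 0.77) and Hoxd (1.65, 0.95 and -2.56). RANKL did not, and its central genes stood highest in Hoxa (0.85, 1.16 and 0.18) and Hoxd (-1.36, 0.62 and -2.60) as well as in Hoxb (0.82, 2.02 and 1.53). These levels per kb are descriptions over 1 to 5 genes a bin, and low values carry the drawing together described above.

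The comparison of RANKL with ENRI, M cell against enterocyte cultures, found 6 of the 15 tested Hox members lower and 0 higher in RANKL (limma, adjusted p under 0.05). Over all 16563 tested genes, 10.5% were called lower and 10.4% higher. The comparison of RANKL with WENRC, M cell against stem cell cultures, found 7 of 15 lower and 0 higher, against 3.62% of all tested genes lower and 8.53% higher. The 6 members lower against ENRI were all lower against WENRC too, where Hoxb8 joined them, and 6 of the 7 lie in Hoxb with Hoxa3 as the other. Both comparisons use the same RANKL libraries. At an unadjusted p under 0.05, 8 members were lower than in ENRI and 9 lower than in WENRC, and 0 were higher in either. In bulk cultures, fewer cells of a type and less RNA per cell cannot be told apart.

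Hoxb5os (NR_131758, chr11:96152351-96168224, minus strand), an antisense transcript that runs over Hoxb6 and Hoxb5, fell furthest among the called members. Its values were 4.07 and 4.31 in RANKL, 8.13 and 7.01 in ENRI, and 8.32 and 7.86 in WENRC. Both RANKL libraries lay far below the other 4, and the groups did not overlap. The change was -3.38 ± 0.39 (SE, limma, adjusted p = 0.00489) against ENRI and -3.90 ± 0.39 (adjusted p = 0.00493) against WENRC.

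Hoxb3 (NM_001079869, chr11:96184440-96209244) is a group 3 homeodomain factor, and its values were 5.29 and 5.11 in RANKL, 7.80 and 6.98 in ENRI, and 8.06 and 7.69 in WENRC. It changed by -2.19 ± 0.31 (SE, limma, adjusted p = 0.00848) against ENRI and by -2.67 ± 0.31 (adjusted p = 0.00701) against WENRC. Its Hoxa paralog Hoxa3 (NM_010452, chr6:52119061-52163066, minus strand) had 5.44 and 5.40 in RANKL, 7.50 and 6.93 in ENRI, and 7.88 and 6.73 in WENRC. In both genes the RANKL libraries lay below all others. Hoxa3 changed by -1.80 ± 0.40 (SE, limma, adjusted p = 0.0292) and -1.89 ± 0.40 (adjusted p = 0.0358). The annotated Hoxa3 gene spans Hoxa4, Hoxa5 and Hoxa6, which lie on the same strand. Reads of these genes may be counted with it whatever the strand handling of the counting, which is not stated.

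The central Hoxb genes followed at smaller size on these log2 values, which understate differences of low genes. By the authors' own log2 fold changes the order was another. Against ENRI and WENRC, Hoxb5 changed there by -7.29 and -7.55, Hoxb6 by -7.14 and -7.64, and Hoxb8 by -6.17 and -6.80. Hoxb3 changed by -3.65 and -4.20, Hoxa3 by -2.96 and -3.22, and Hoxb9 by -1.99 and -3.54. Hoxb5os still fell furthest, by -9.89 and -10.4, and Hoxd3, which limma did not call, changed by -8.75 and -8.55. Hoxb5 (chr11:96164826-96167435) had values of 3.78 and 3.83 in RANKL, 5.11 and 4.78 in ENRI, and 5.29 and 4.80 in WENRC. Hoxb6 (chr11:96160485-96162883) had 3.77 and 3.83 in RANKL, 5.08 and 4.62 in ENRI, and 5.15 and 5.07 in WENRC. Both lie under Hoxb5os on the other strand, and since strand handling is not stated, the 3 transcripts may share reads. Hoxb5 changed by -1.14 ± 0.24 (SE, limma, adjusted p = 0.0250) against ENRI and -1.24 ± 0.24 (adjusted p = 0.0270) against WENRC, and Hoxb6 by -1.05 ± 0.22 (adjusted p = 0.0230) and -1.31 ± 0.22 (adjusted p = 0.0166). Under quantile normalization the calls of Hoxb5 against both cultures (limma, adjusted p = 0.0559 and 0.0566) and of Hoxb6 against ENRI (adjusted p = 0.0502) were lost, the last also with the 4 compared libraries alone and without either WENRC library. Hoxb8 (chr11:96143219-96146639) had 3.37 and 3.40 in RANKL, 3.99 and 3.97 in ENRI, and 4.07 and 4.30 in WENRC. All 4 other libraries lay above RANKL, with a change of -0.59 ± 0.17 (adjusted p = 0.0596) against ENRI and -0.80 ± 0.17 (adjusted p = 0.0374) against WENRC, a call lost without the filter (adjusted p = 0.0545).

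Hoxb9 (chr11:96132644-96137907), a posterior gene, was the 1 member called in all 3 comparisons. Its values were 4.67 and 4.52 in RANKL, 5.22 and 5.44 in ENRI, and 6.27 and 6.20 in WENRC, with no overlap between any pair of cultures. It changed by -0.73 ± 0.19 (SE, limma, adjusted p = 0.0432) against ENRI and by -1.64 ± 0.19 (adjusted p = 0.00715) against WENRC. The main fit has no term for mouse, though ENRI and WENRC share mice. With mouse as a block, the call between these 2 cultures was kept in all 6 libraries and lost in the 4 compared libraries alone. In the main comparison of WENRC with ENRI, stem cell against enterocyte cultures, Hoxb9 was higher in WENRC by 0.90 ± 0.19 (adjusted p = 0.0326). It was the 1 member of 15 called there, against 4.85% of all tested genes called higher and 9.74% called lower, and 0 members were called lower (0 at an unadjusted p under 0.05, and 0 in the authors' deposited table, where 9.24% of tested genes were lower and 3.30%, Hoxb9 among them, higher). The Hoxb9 call was lost without the filter, with the 4 compared libraries alone and without any 1 of RANKL 1, RANKL 2, WENRC 1 or WENRC 2. Adjusted p ranged from 0.00130 to 0.173 over the alternatives. Its call against ENRI was lost in the authors' deposited table (adjusted p = 0.167), without the filter, with the filter at log2 of 50, with the 4 compared libraries alone and without any 1 of RANKL 1, RANKL 2, ENRI 2, WENRC 1 or WENRC 2 (limma, adjusted p from 0.00136 to 0.264 over the alternatives).

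**Figure D2:**
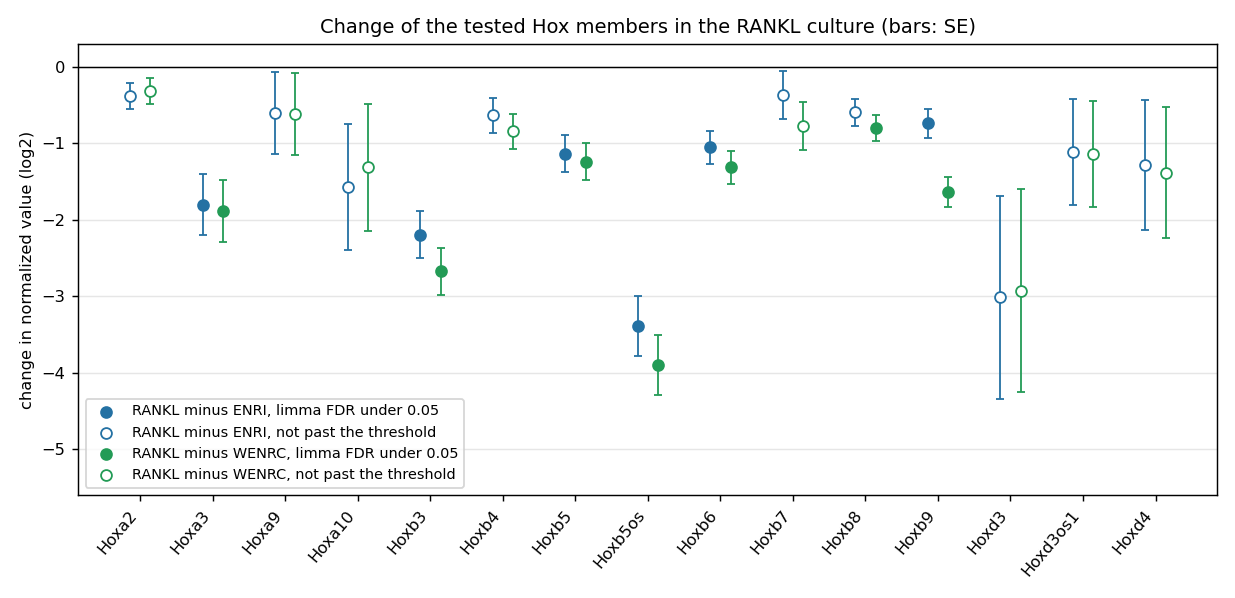
Change in normalized value (log2, y axis) of the 15 tested members in RANKL against ENRI and against WENRC, with SE bars from limma, filled where the adjusted p was under 0.05. All 30 points lie below 0, the filled ones being Hoxa3, Hoxb3, Hoxb5, Hoxb5os, Hoxb6 and Hoxb9 in both comparisons and Hoxb8 in 1, while the long bars of Hoxd3, Hoxd4 and Hoxa10 go with their split by mouse.

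The other 8 tested members were called in neither comparison. Hoxb4 had 4.36 and 4.29 in RANKL, 5.15 and 4.76 in ENRI, and 5.34 and 4.999 in WENRC, a change of -0.63 (limma, adjusted p = 0.101) and -0.84 (adjusted p = 0.0664). Hoxb7 had 3.29 and 3.33 in RANKL, 4.13 and 3.22 in ENRI, and 4.17 and 3.99 in WENRC, and overlapped through ENRI 2. Hoxa2, the member of Hoxa with the highest level per kb, had 3.09 and 3.08 in RANKL, 3.58 and 3.35 in ENRI, and 3.43 and 3.38 in WENRC. All 15 tested members had a negative change in both comparisons, against 50.5% and 50.7% of all tested genes, with medians of -1.11 and -1.31 against -0.00 and -0.01. Hoxa2 and Hoxa9 are among the 15, and for them a lower RANKL value was built into the selection. Over the 40 members not at 0, 35 and 33 changes were negative, with medians of -0.22 and -0.28. By cluster the medians over every member were -0.63 and -0.84 in Hoxb, -0.23 and -0.35 in Hoxa, -0.14 and -0.04 in Hoxd, and -0.00 and 0.00 in Hoxc.

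Without a model, both RANKL libraries lay below all 4 others in 16 of 42 members, 9 in Hoxb, 4 in Hoxa, 3 in Hoxd and 0 in Hoxc, against 14.0% of the listed genes not at 0. Among tested members it was 13 of 15, against 16.9% of tested genes, with Hoxa9 and Hoxb7 as the exceptions. The 13 include Hoxa2, for which a lower RANKL value was built into its selection. In the authors' deposited table, 10 members were lower in RANKL than in ENRI at an adjusted p under 0.05, and 11 lower than in WENRC, all among the 15. These stand against 11.0% and 11.1% of all tested genes, and 0 members were higher, against 8.55% and 16.7%. That table's calls included 5 of the 6 and all 7 of the limma calls, and added Hoxa10 and Hoxd3 in both comparisons.

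The counts rested on the few libraries and on how the 2 mice entered the fit. A fit with mouse as a block takes the difference between mouse 1 and mouse 2 out of the error. RANKL, which has no mouse label, is then set against their midpoint. In that fit 13 members were lower in both comparisons, where 2304 and 1017 of all 16563 tested genes were called lower. Every tested member but Hoxa2 and Hoxb7 was called, among them Hoxa9, whose RANKL values overlapped those of mouse 2. Without RANKL 1 or without RANKL 2, 0 members were called in either comparison (5 to 8 at an unadjusted p under 0.05), and calls over all genes fell to between 16 and 79 in each direction against ENRI and to 0 against WENRC. Without WENRC 1 or WENRC 2, the calls against WENRC were all lost. Without ENRI 2 more members were called against ENRI, as were more of all tested genes.

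The 2 mice differed most at 5 members, Hoxd3, Hoxd4 and Hoxd3os1 in Hoxd and Hoxa9 and Hoxa10 in Hoxa. Hoxd3 (NM_010468, chr2:74550050-74586328), the group 3 gene of Hoxd, had 8.48 in ENRI and 8.32 in WENRC of mouse 1, but 5.18 and 5.17 in mouse 2, and 3.76 and 3.88 in RANKL. The 2 cultures of a mouse were alike and the 2 mice far apart, by 3.30 in ENRI and 3.15 in WENRC. Hoxd4 (chr2:74560035-74567216) had 5.73 and 5.75 in mouse 1, 3.60 and 3.78 in mouse 2, and 3.34 and 3.42 in RANKL. Hoxd3os1, an antisense transcript at the Hoxd3 start, had 5.53 and 5.42 in mouse 1, 3.75 and 3.90 in mouse 2, and 3.501 and 3.555 in RANKL. Hoxd3 overlaps both of them, so the 3 may share reads.

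Hoxa10 (chr6:52181196-52190853, minus strand) showed the same split, with 6.10 and 5.93 in mouse 1, 4.20 and 3.86 in mouse 2, and 3.58 and 3.58 in RANKL. Hoxa9 had 4.098 and 4.101 in mouse 1, 2.83 and 2.85 in mouse 2, and 2.84 and 2.87 in RANKL, so that RANKL and mouse 2 overlapped. These 5 members were higher in mouse 1 by at least 1 on the log2 scale in both cultures, against 0.211% of all tested genes. In the other direction, 0 members and 2.49% of tested genes passed the same size. No Hoxb member reached 1 in both cultures, and Hoxb5os differed by 1.12 in ENRI and 0.46 in WENRC. With 1 animal on each side there is no test.

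Ranked by the smaller of its 2 gaps, Hoxd3 was number 5 of 16563 tested genes, after the Y-linked genes Uty, Ddx3y, Kdm5d and Eif2s3y. Of the 35 genes past a gap of 1 in both cultures, 5 were the Hox members, 4 were Y-linked and 10 were small nucleolar RNA genes, a grouping made after the genes were seen. The Y-linked gene Ddx3y was at 8.50 and 8.29 in mouse 1 and between 3.28 and 3.60 in the other 4 libraries. Mouse, sex-linked expression and the date in the header cannot be told apart. Set against mouse 2 alone, RANKL differed by -1.36 in Hoxd3, -0.31 in Hoxd4, -0.45 in Hoxa10 and 0.02 in Hoxa9. Against mouse 1 the same genes differed by -4.58, -2.36, -2.44 and -1.24. Hoxb5os differed by -3.25 from mouse 2 and -4.04 from mouse 1, and Hoxb3 by -2.14 and -2.73.

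**Figure D3:**
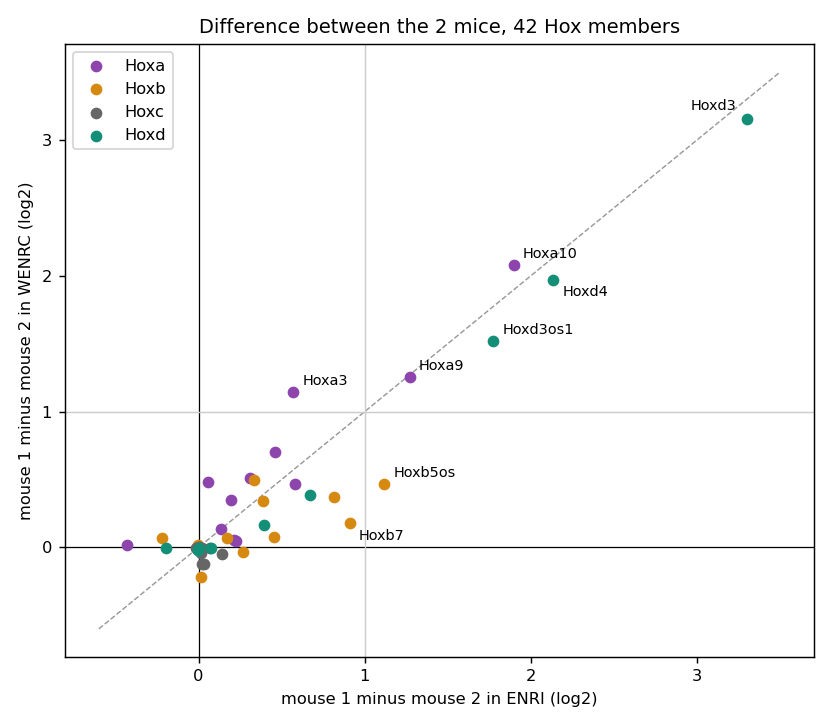
Mouse 1 minus mouse 2 in ENRI (x axis, log2) and in WENRC (y axis, log2) for the 42 members, coloured by cluster, with a dashed line of equal gaps and grey lines at 1. Hoxd3 lies at 3.30 and 3.15, Hoxd4, Hoxd3os1, Hoxa10 and Hoxa9 follow past both grey lines, and no Hoxb or Hoxc member does.

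H3K27me3 differed over parts of all 4 clusters, and by the length covered most over Hoxb. The authors' tables list regions where 1 culture had at least 2 times the tags of the other. Of 35798 RANKL-higher regions, 54 had a member as nearest gene (26 for Hoxb, 13 for Hoxc, 8 for Hoxa and 7 for Hoxd), naming 27 members. Of these, 18 lay inside the Hoxb span, 2 inside Hoxc, 8 inside Hoxa and 6 inside Hoxd. Of 13607 WENRC-higher regions, 7 had a member as nearest gene (4 in Hoxd and 3 in Hoxc). Folds are the authors' values, the WENRC tags were scaled by 0.9 to the RANKL depth, and with 1 WENRC library the differences have no replicate check.

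By position, RANKL-higher regions covered 54.9% of the Hoxb span (chr11:96055675-96229567, 37 regions, 95.4 kb). They covered 15.6% of the Hoxd span (chr2:74506367-74603199, 15.1 kb), 12.6% of Hoxa (13.3 kb) and 3.33% of Hoxc (chr15:102751562-102867283, 3.86 kb). Of the whole of chromosome 11, up to the last listed gene or region, 1.62% was covered. The regions that touched the Hoxb span held 9401 RANKL tags and 3979 scaled WENRC tags over their whole length, part of which lies beyond the span, or 89.6 and 37.9 tags per kb of region. The 100 kb beyond the Hoxb13 end were covered to 30.9% and the 100 kb beyond the Hoxb1 end to 14.9%, so coverage reached past the cluster and was lower there. No WENRC-higher region lay in the Hoxb span, and 1, 1 and 3 lay in those of Hoxa, Hoxc and Hoxd.

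Single regions named for Hox genes were longer and of lower fold than most of the table. The 54 regions had folds of 2.01 to 3.78 with a median of 2.41, against 2.92 over all RANKL-higher regions, and a median length of 924 bp against 500. Of the 54, 14 were at least 2.5 kb long, against 2.65% of all RANKL-higher regions. The longest, at chr11:96046098-96061517, ran over the whole of Hoxb13 for 15419 bp with 1335 RANKL and 594.2 scaled WENRC tags (fold 2.25), and 5 regions of the table were as long. Next to Hoxb9 a region of 8566 bp over its start held 1058 and 435.7 tags (fold 2.43). Over Hoxb5 and the start of Hoxb5os a region of 8187 bp held 846 and 411.4 tags (fold 2.06), and over Hoxb4 a region of 4064 bp held 352 and 150.3 tags (fold 2.34).

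**Figure D4:**
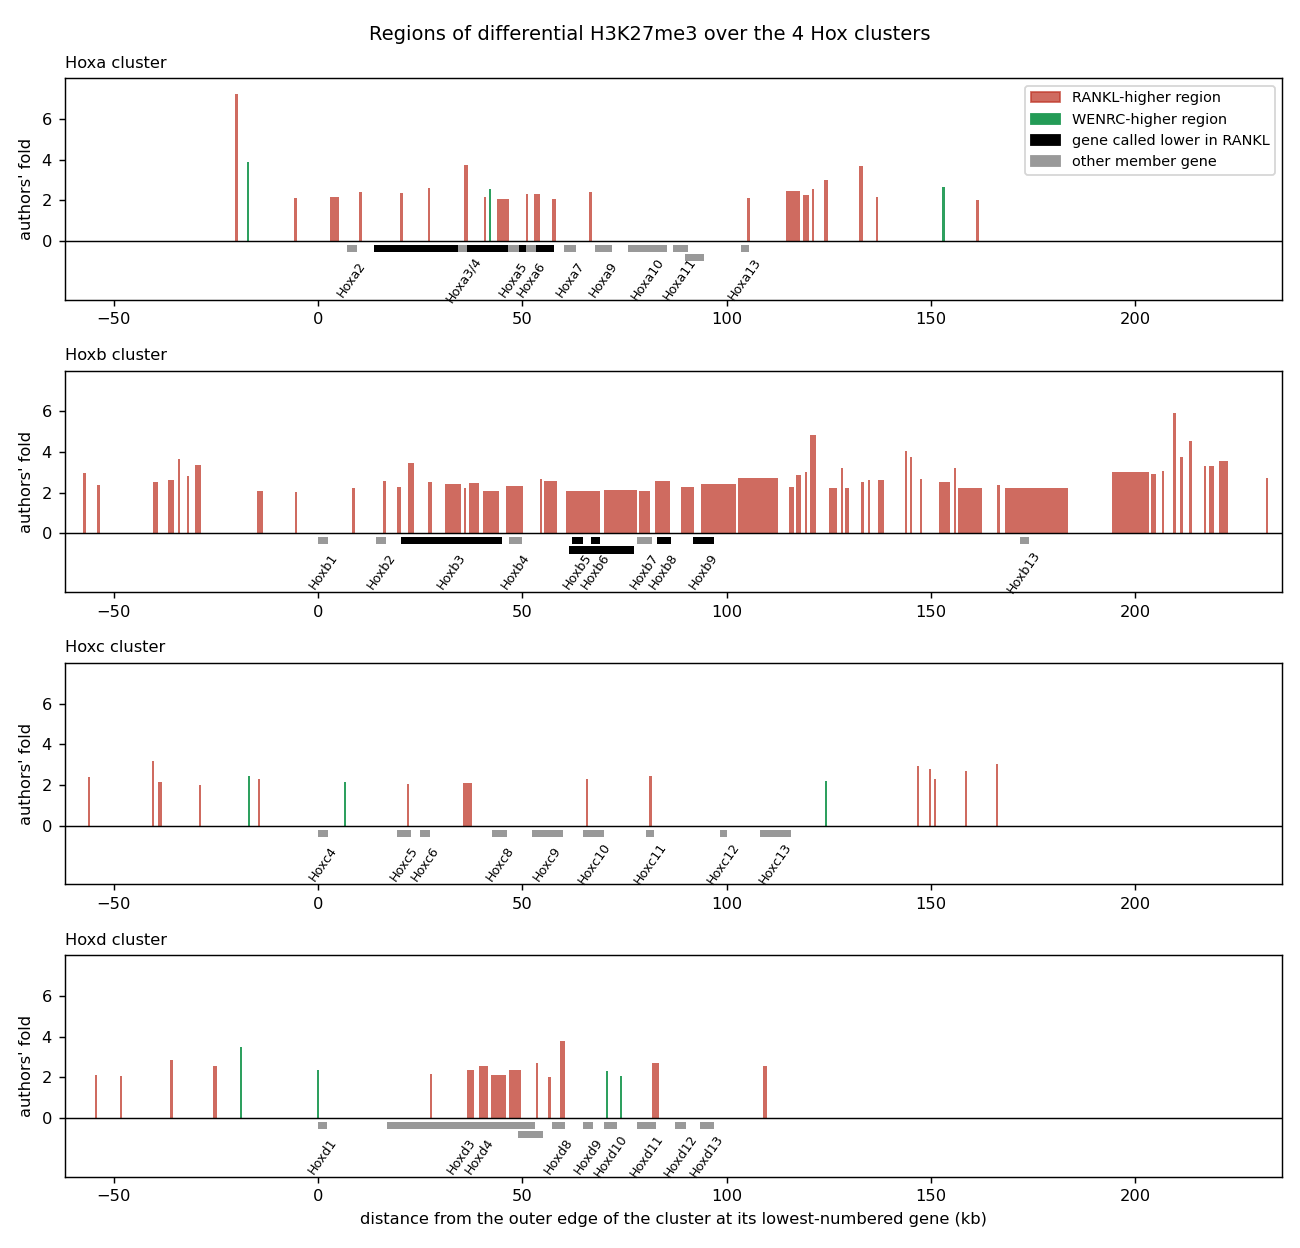
Regions of differential H3K27me3 over and around the 4 clusters, by distance from the cluster's outer edge at its lowest-numbered gene (x axis, kb) and the authors' fold (y axis), red where RANKL was higher and green where WENRC was higher, with member genes as boxes below and antisense members one row lower. Red regions fill much of Hoxb (54.9% of the span) and little of Hoxc (3.33%), with no green region in the Hoxb span.

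Gene by gene, 24 of 42 members had a RANKL-higher region over the gene, against 20.7% of all listed genes, and 14 had one over the start, against 6.81%. In 10 members such regions covered at least 50% of the gene, against 0.886% of listed genes, and 9 of the 10 were Hoxb genes with Hoxd4 (67.3%) as the other. Hoxb4, Hoxb5 and Hoxb13 were covered whole, Hoxb5os to 93.9%, Hoxb6 to 93.6%, Hoxb8 to 91.0%, Hoxb7 to 71.8%, Hoxb9 to 65.8% and Hoxb3 to 53.6%. Among these, Hoxb13 lay under the GRO-seq filter (2.03 and 2.03 in RANKL, at most 2.33 elsewhere), and Hoxb4, Hoxb7 and Hoxd4 were tested and not called. WENRC-higher regions lay over 3 members, Hoxa3, Hoxd1 and Hoxd10, against 9.82% of listed genes, and over the start of 0, against 0.347%.

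All 7 members called lower in RANKL had a RANKL-higher region over the gene, as did 17 of the other 35. In Hoxb, where 6 of the 7 lie, such regions lay over 10 of the 11 members, called or not. Hoxb5, Hoxb6 and Hoxb5os share 1 of these regions, so the 7 are not separate cases. Hoxa3 had 8 of them, which covered 18.5% of its 44.0 kb, and 1 lay over its start (927 bp, 136 RANKL and 66.6 scaled WENRC tags, fold 2.04). Hoxd3 had 5, covering 30.2%, and the nearest region named for it was centred upstream of its start (distance -409 bp, 41 and 15.3 tags, fold 2.68). At Hoxa4, inside Hoxa3, the region over the start had 122 and 32.4 tags (fold 3.76). At Hoxd8 one had 126 and 33.3 tags (fold 3.78), the highest fold of the 54. Of the Hoxc regions, 7 of 13 were named for Hoxc13 and lay between 31.1 kb and 81.3 kb before it, outside the cluster.

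Regulators and partners of the Hox genes were counted from lists. Of 9 TALE partner genes (Pbx, Meis and Pknox), all tested, Pbx2 rose by 0.87 (limma, adjusted p = 0.0318) and Meis1 fell by 1.77 on the log2 scale (adjusted p = 0.0334) against ENRI, and 0 were called against WENRC. One of 9 in each direction is close to the shares of all tested genes called against ENRI, 10.4% higher and 10.5% lower. In the comparison with WENRC, Meis1 changed by -1.50 (adjusted p = 0.0723). Meis1 had 5.12 and 5.24 in RANKL, 7.60 and 6.29 in ENRI, and 6.72 and 6.63 in WENRC, and 16 RANKL-higher regions lay over it. Pknox2, of the same list, carried 19 such regions and 2 WENRC-higher ones, and changed by 0.08 and 0.25 (adjusted p = 0.924 and 0.802). These region counts are not scaled to gene length. Of 14 regulators outside PRC2, 12 were tested, with 4 higher and 0 lower against ENRI and 3 higher and 0 lower against WENRC, where 10.4% and 8.53% of all tested genes were higher. Kmt2a, the H3K4 methyltransferase that keeps Hox genes active, rose by 1.09 (adjusted p = 0.0126) and 0.97 (adjusted p = 0.0231), its relative Kmt2b by 0.71 (adjusted p = 0.0145) and 0.58 (adjusted p = 0.0341), and Cdx1, a posterior gut factor, by 1.20 (adjusted p = 0.0264) and 1.19 (adjusted p = 0.0375). Rarb, a retinoic acid receptor gene, rose by 1.05 against ENRI (adjusted p = 0.0320) with 13 RANKL-higher and 4 WENRC-higher regions over it. Cdx2, the relative of Cdx1, changed by 0.10 and -0.11 (adjusted p = 0.675 and 0.668). The median change of the regulators was 0.58 and 0.43.

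Non-Hox genes lie inside the clusters as well. Of 14 such genes, 13 were listed and 2 tested, and Gm53, a noncoding transcript between Hoxb9 and Hoxb13, fell by 0.96 (limma, adjusted p = 0.0231) and 1.59 (adjusted p = 0.00805) on the log2 scale. It had 3.87 and 3.87 in RANKL, 4.83 and 4.84 in ENRI, and 5.29 and 5.64 in WENRC. Hotairm1, a noncoding transcript of the Hoxa cluster, changed by -0.80 (adjusted p = 0.0569) and -0.54 (adjusted p = 0.181). The miRNA genes of the clusters (Mir10a, Mir10b, Mir196a-1, Mir196a-2, Mir196b and Mir615) had values at or below 0 in all 6 libraries.

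Markers of other cell types and of other gut regions stood beside these changes. Mesenchymal cells use Hox genes too, and of 9 mesenchyme markers 1, Acta2, passed the filter, with 6.98 and 7.11 in RANKL, 7.59 and 7.26 in ENRI, and 8.005 and 7.29 in WENRC. Its change was -0.39 and -0.60 (limma, adjusted p = 0.360 and 0.211). The summed level of the list, as log2, was 7.32 and 7.41 in RANKL, 7.82 and 7.57 in ENRI, and 8.17 and 7.59 in WENRC, so it was lowest in RANKL and highest in mouse 1. Acta2 made up most of that sum, and the median of the 9 markers had another order, with 2.16 and 1.99 in RANKL, 1.93 in both libraries of mouse 1, and 2.37 (ENRI) and 2.11 (WENRC) in mouse 2. The part of these markers in the Hox results was not tested. The other 8, Vim, Pdgfra and the collagen genes among them, were not tested and 0 were listed at 0. Of neural markers 3 of 5 were tested, with 1 lower in RANKL than in ENRI, and of 3 tested immune markers 0 were called. Of the region markers, the duodenal factor Gata4 was higher in RANKL than in WENRC by 1.03 (adjusted p = 0.0322), and of the ileal pair the 1 tested gene was not called. Of 2 tested colon markers, 1 was lower in RANKL than in WENRC and 0 were called between RANKL and ENRI. In WENRC 1 of these 2 was higher than in ENRI. Of 5 epithelial markers, 2 were lower in RANKL than in ENRI and 1 lower than in WENRC.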

How the data were processed

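GRO-seq values are log2 values. Per the file headers, the authors counted reads over RefSeq genes of mm9 with HOMER (analyzeRepeats.pl, getDiffExpression.pl), and the submitters' processing notes name Bowtie2 2.3.4.1, HOMER and DESeq2. Those deposited log2 values look like a regularized logarithm, normalized across libraries; strand handling is not given in the sources used here. The authors' own log2 fold changes and adjusted p-values were turned to first-named minus second-named culture. The design had been written for counts; since the table holds log2 values, limma 3.58.1 (R 4.3.3, variance trend, 3 group means, 6 libraries) was run on the values as deposited, with no pseudocount. Genes with at least 2 libraries at log2 of 10 or more (16563) were tested, two-sided, with Benjamini-Hochberg adjustment and a threshold of 0.05. With 2 libraries a culture, p-values measure the spread between these libraries, and for RANKL nothing says that they came from separate animals.

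H3K27me3 regions are HOMER peaks of one culture against the other, per the file headers, with RANKL pooled. The RANKL tags are counts as deposited; the authors scaled the WENRC tags by 0.9, so these are a signal. The deposited fold is a tag ratio made by the authors, and their p-value per region was not used for a test. Depth was 32.7 M tags in RANKL and 36.3 M in WENRC, and 12 blank rows were dropped. A region was over a gene where they shared at least 1 base.

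The ENRI and WENRC libraries share mice per the labels, and their deviations from the culture means correlated across genes (r = 0.414). Named were members called in at least 1 comparison, Hoxb5os, the 2 tested members per cluster with the highest level per kb, and up to 3 called genes per other list; Hoxd3, Hoxb4, Hoxb7, Hoxa9, Hoxb13, Hoxa4, Hoxd8, Pknox2, Rarb, Olfm4 and Lgr5 were added after their values were seen. Members and lists (TALE partners, regulators outside PRC2, non-Hox cluster genes, neighbours of the clusters, and markers of cell types and gut regions) were chosen with earlier results of these data known. Alternatives were other normalizations, filters, library sets and a mouse block. The fit was tested on simulated data. One member gene and one marker gene are included in the counts, medians and fits, but their own values are not reported here and the member is left out of the plots that name genes.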

Additional observations from a re-analysis of the deposited data

How the results depend on the processing

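With 2 libraries a culture, the counts of called Hox members depended on the libraries in the fit. With all 6 libraries, 6 members were lower in RANKL than in ENRI, 7 lower than in WENRC, and 1, Hoxb9, higher in WENRC than in ENRI. Leaving out 1 library at a time could move these counts, and it moved the calls over all tested genes as well. Shifts in the member counts are therefore not a result about Hox genes. In size, Hoxb3 changed against ENRI by -1.79 without ENRI 1 and -2.60 without ENRI 2. Against WENRC it changed by -2.49 without WENRC 1 and -2.86 without WENRC 2. The fit without a library leaves a culture with 1 library, assumed to vary like the others. The stricter filter of log2 of 50, which left 7 members, gave 3 and 4 lower. Mouse as a replicate block gave 13 and 13, where 2304 and 1017 of all tested genes were called lower. The labels give this pairing for ENRI and WENRC only, so it does not pair RANKL with either. The block left Hoxb9 as the 1 member higher in WENRC, and with the block and the 4 compared libraries alone the count was 0. Without the filter and with the 4 compared libraries alone, 0 were higher in WENRC than in ENRI. The authors' deposited table gave 10 and 11 lower. Chosen after seeing the data, fits without both libraries of mouse 2 gave 15 and 14 lower, and without both of mouse 1 gave 9 and 10 lower and 4 higher in WENRC. In these fits the spread comes from the RANKL pair alone. Calls over all tested genes also rose in each of these comparisons, above those with all 6 libraries. These shifts in the member counts are therefore not a result about Hox genes either. Quantile normalization, upper-quartile recentring and no variance trend kept counts within 1.5 times. Under upper-quartile recentring the median change of all genes in RANKL minus WENRC was -0.12, against -0.01 without it. Under every alternative run, 0 members were higher in RANKL.

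Direction was reversed in 6 of 481 values of single members. Hoxa9 changed by 0.0269 against ENRI without ENRI 1 and without mouse 1 (-1.24 without ENRI 2), and by 0.0074 against WENRC without WENRC 1 and without mouse 1 (-1.25 without WENRC 2). Hoxb7 changed by 0.0883 against ENRI without ENRI 1 and without mouse 1 (-0.82 without ENRI 2). Of the other values, 353 kept direction and side of the threshold, 61 gained and 61 lost a call, and the cause was not tested. For H3K27me3, a fold of at least 4 left 0 RANKL-higher and 0 WENRC-higher regions named for members, and a distance within 5 kb of the start left 28 and 4. Read depth of GRO-seq is unknown, so no floor can be given for the Hoxc genes.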

Other observations

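Genes next to the clusters were counted as a list of the nearest 2 listed genes beyond each cluster end, 16 in all with 8 tested. Ttll6, beyond the Hoxb13 end, was lower in RANKL than in ENRI (change -1.33, limma, adjusted p = 0.0291) and had values of 4.62 and 4.40 in RANKL, 5.55 and 6.14 in ENRI, and 5.06 and 5.63 in WENRC. It carried 11 RANKL-higher H3K27me3 regions. Lnpk, beyond the Hoxd13 end, was higher in RANKL than in ENRI by 0.64 (adjusted p = 0.0395), and Calcoco1, beyond the Hoxc13 end, higher than in WENRC by 1.25 (adjusted p = 0.0115). Skap1, beyond the Hoxb1 end, carried 37 RANKL-higher and 5 WENRC-higher regions, counts not scaled to gene length. It changed by -0.08 and 0.37 (adjusted p = 0.944 and 0.769). The median change of the 8 was 0.01 against ENRI and 0.07 against WENRC.

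Hoxa holds 2 further antisense transcripts whose names do not match the member pattern. Hoxaas3, inside the Hoxa3 gene, had 3.56 and 3.62 in RANKL, 5.36 and 4.40 in ENRI, and 5.62 and 3.99 in WENRC, a change of -1.29 and -1.22 (limma, adjusted p = 0.163 and 0.224). Hoxaas2, upstream of Hoxa2, had 3.54 and 3.60 in RANKL, 3.98 and 4.19 in ENRI, and 4.37 and 3.89 in WENRC, a change of -0.51 and -0.56 (adjusted p = 0.155 and 0.162). In both, all 4 other libraries lay above RANKL.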
